A study of Mus musculus with 6 samples.

Results

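The lysyl oxidases and collagen hydroxylases described here are 10 mouse genes, namely Lox and Loxl1 to Loxl3, Plod1 to Plod3, and P4ha1 to P4ha3. They were taken by gene symbol from a table of 24970 rows, and all 10 were present and were tested. RNA was sequenced from vascular smooth muscle cells of the arterial wall, isolated with collagenase from 6-week-old C57BL/6 male mice and grown in culture with serum. The protocol's entry for the age is not clearly written and was read as 6 weeks. One group received siRNA against Pfkfb3 (siPfkfb3, 3 samples) and the other a scrambled siRNA (siScrambled, 3 samples), each at 20 nM with the same lipid reagent, and both are labelled 48 h. Pfkfb3 encodes an enzyme that makes an activator of glycolysis, and the comparison asks which transcripts differ when it is depleted. The cells are a bulk culture, so fewer cells of a type and less RNA per cell cannot be told apart, and no label says that the 3 samples of a group came from separate mice or isolations. The p-values therefore rest on differences between cultures that may be technical replicates.

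Collagen chains are modified before and after they leave the cell. In the endoplasmic reticulum, prolyl 4-hydroxylases convert prolines of the triple helix to hydroxyproline, which makes the helix stable at body temperature, and lysyl hydroxylases (the Plod genes) convert lysines to hydroxylysine. Both kinds of enzyme need iron, oxoglutarate, oxygen and vitamin C. Outside the cell, lysyl oxidases, which use copper, oxidise lysine and hydroxylysine side chains of collagen and elastin so that neighbouring chains join covalently, and in the arterial wall this gives collagen and elastic fibres their strength. Several of these genes, among them Lox, Plod2, P4ha1 and P4ha2, are known targets of the hypoxia-inducible factors (HIF).

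After Pfkfb3 depletion the lysyl oxidases moved in both directions: Lox, Loxl1 and Loxl3 rose and Loxl2 fell. Of the hydroxylases, P4ha3 rose, and Plod1, Plod2, Plod3, P4ha1 and P4ha2 did not pass the test. Each called member had siPfkfb3 and siScrambled values that did not overlap. In all, 4 of 10 members were higher and 1 was lower, where 15.8% of all 11240 tested genes were called higher and 20.5% lower, 36.3% in either direction. The members did not overlap between groups in 5 cases of 10, against 49.5% of all tested genes, a share near that background. The median log2 fold change was 0.03 over the members and −0.02 over all tested genes.

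Levels are given in FPKM, a read density corrected for gene length and library size, as the authors deposited them. Differences are siPfkfb3 minus siScrambled on the log2(FPKM + 1) scale from limma, a linear model fitted to the 11240 genes whose mean over the 6 samples reached 1 FPKM, and a gene is called at a Benjamini-Hochberg adjusted p under 0.05. Pfkfb3 itself stood at 1.92, 1.65 and 1.77 FPKM in siPfkfb3 and at 4.03, 4.02 and 3.86 FPKM in siScrambled, or 44.9% of the control mean (limma, adjusted p = 2.66e-05). For replicates 2 and 3 of siPfkfb3 the genotype field reads PFKFB4 and PFKFB5, but the titles read PFKFB3, and Pfkfb3 was low in both. Across genes, which are not independent replicates, the correlation was 0.979 to 0.983 for pairs of libraries from different groups and 0.993 to 0.995 for pairs from the same group. FPKM carries no read number, and the commonest low value of unannotated rows puts the deepest library at about 1.24 times the shallowest, as a rough estimate.

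**Figure D1:**
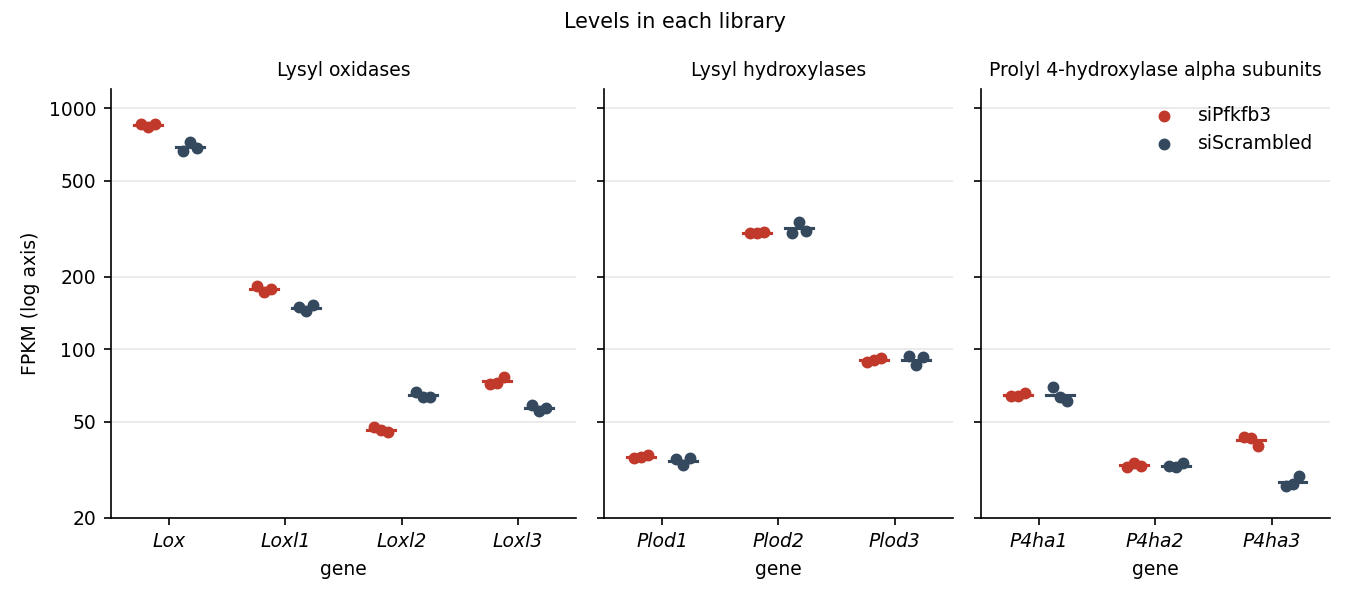
FPKM (log axis) of the 10 genes in each library, siPfkfb3 in red and siScrambled in dark grey, with a bar at the mean of 3 libraries. The groups are apart for Lox, Loxl1, Loxl2, Loxl3 and P4ha3 and overlap for the other 5 genes; Loxl2 is the one gene of the 5 that is lower in siPfkfb3.

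Lox, the founding lysyl oxidase, which crosslinks fibrillar collagen and elastin, was the most abundant of the 10 in both groups. It lies on chromosome 18 (GRCm38, 52516067 to 52529867, minus strand; ENSMUSG00000024529). Lox had 861, 837 and 856 FPKM in siPfkfb3, against 661, 721 and 684 FPKM in siScrambled. Every siPfkfb3 library was above every control library, and in all 6 libraries the gene ranked between place 41 and place 55 of the 24970 rows. An antisense RNA overlaps 30 exonic bases of Lox, 0.628% of them. The mean was 851 ± 12.9 FPKM in siPfkfb3 and 689 ± 30.2 FPKM in siScrambled (SD, n = 3 each), 124% of control, with a log2 fold change of 0.31 ± 0.03 (SE; limma, adjusted p = 0.000119).

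Loxl1, which in mice is needed to renew elastic fibres, behaved like Lox at a lower level. Loxl1 (chromosome 9, 58287738 to 58313186, minus strand; ENSMUSG00000032334) had 182, 173 and 178 FPKM in siPfkfb3, against 150.2, 144 and 152 FPKM in siScrambled. The groups did not overlap, and within a group the libraries spanned at most 1.05-fold. The log2 fold change was 0.25 ± 0.03 (SE; limma, adjusted p = 0.000328).

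Loxl3, an oxidase with scavenger receptor domains that mice need for palate and spine development, also rose. Loxl3 (chromosome 6, 83034173 to 83052562, plus strand; ENSMUSG00000000693) had 71.6, 72.3 and 76.8 FPKM in siPfkfb3, against 58.6, 55.3 and 57.3 FPKM in siScrambled. The groups did not overlap, and the log2 fold change was 0.36 ± 0.04 (SE; limma, adjusted p = 0.000113). Exons of Loxl3 overlap those of the protein-coding gene Htra2 on the opposite strand over 535 bases, 11.6% of the exonic bases of Loxl3, and whether reads were counted by strand is not given in the sources used here, so part of its value may belong to Htra2.

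Loxl2, an oxidase of the same scavenger receptor subgroup that crosslinks collagen IV of basement membranes, was the member that fell. Loxl2 (chromosome 14, 69609068 to 69695834, plus strand; ENSMUSG00000034205) had 47.7, 46.3 and 45.3 FPKM in siPfkfb3, against 66.7, 63.5 and 63.4 FPKM in siScrambled. All siPfkfb3 libraries were below all controls. An antisense RNA and a miRNA overlap 5.70% of its exonic bases. Its mean was 46.4 ± 1.23 FPKM in siPfkfb3 and 64.5 ± 1.91 FPKM in siScrambled (SD, n = 3 each), 72.0% of control, with a log2 fold change of −0.47 ± 0.04 (SE; limma, adjusted p = 1.80e-05). The remaining family gene, Loxl4, is not among the 10 but was in a list of related enzymes: it averaged 13.5 ± 0.856 FPKM in siPfkfb3 and 16.6 ± 0.130 FPKM in siScrambled (SD, n = 3 each) and also fell, by 0.28 on the log2 scale (limma, adjusted p = 0.00295).

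**Figure D2:**
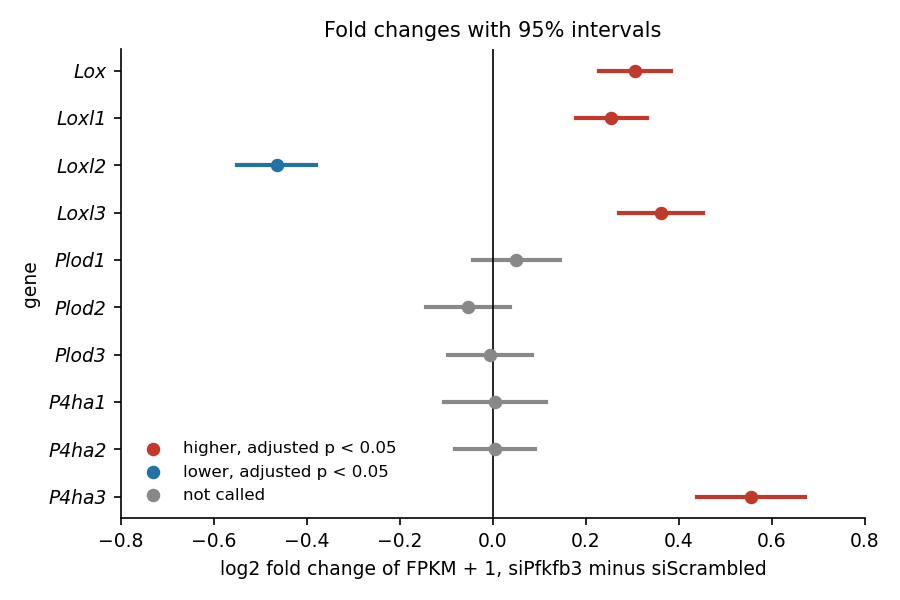
Log2 fold change of FPKM + 1, siPfkfb3 minus siScrambled, with 95% intervals from limma, 1 row per gene (red higher, blue lower, grey not called). The intervals of Lox, Loxl1, Loxl3 and P4ha3 lie above 0, that of Loxl2 lies below it, and the 5 grey intervals cross it.

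The lysyl hydroxylases showed no called change, and their intervals were narrow. Plod2, which hydroxylates lysines of the collagen ends and so sets the type of crosslink, was the second most abundant of the 10. It (chromosome 9, 92542223 to 92608428, plus strand; ENSMUSG00000032374) had 305, 305 and 305 FPKM in siPfkfb3, against 303, 338 and 309 FPKM in siScrambled. The siPfkfb3 values lay inside the range of the controls. Exons of Gm38391 on the opposite strand overlap 346 exonic bases of Plod2, 6.42% of them. The log2 fold change was −0.05 with a 95% interval of −0.14 to 0.04 (limma, adjusted p = 0.331), which holds changes of −9.55% to 2.58% in FPKM + 1.

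Plod1, which hydroxylates lysines within the helix, and Plod3, which in addition carries glycosyltransferase activity, overlapped between groups as well. Plod1 (chromosome 4, 147909753 to 147936767, minus strand; ENSMUSG00000019055) had 35.3, 35.6 and 36.5 FPKM in siPfkfb3, against 35.1, 33.1 and 35.4 FPKM in siScrambled, and its interval ran from −0.04 to 0.14 on the log2 scale (limma, adjusted p = 0.375). Plod3 (chromosome 5, 136987019 to 136996648, plus strand; ENSMUSG00000004846) had 88.3, 90.1 and 92.2 FPKM in siPfkfb3, against 93.4, 85.7 and 92.8 FPKM in siScrambled, with an interval of −0.10 to 0.08 (limma, adjusted p = 0.926). For Plod3, 11.9% of exonic bases overlap other genes, Znhit1 on the opposite strand and a miRNA.

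Earlier work on these data singled out 4 heptamers of 3′ untranslated regions, and these were looked up in the members. Of the 10 members, Plod2 alone carries the first, GAAGAAC, in its longest annotated 3′ untranslated region, once, as do 1194 of 10857 genes searched. The site is shown because it belongs to a member that was not called (GRCm38 chr9:92607561-92607590, plus strand, transcript sequence of GENCODE M21, heptamer in capitals).
Plod2 site: gttcttatttaaGAAGAACctgagaaggtt
The other 3 heptamers occur in 224 to 340 of the genes searched and in none of the members. Lox, Loxl1, Loxl2, Loxl3 and P4ha3, the members that were called, hold none of the 4 in these regions. Most of the genes searched lack each heptamer, and the heptamers were singled out in these same data. Neither the site in Plod2 nor the absence from the called members can therefore be set against the calls. Whether the heptamers bear on the members was not tested.

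The prolyl 4-hydroxylases differed within the family. Their alpha subunits carry the active site and pair with P4hb, the protein disulfide isomerase that serves as beta subunit. P4ha3 (chromosome 7, 100285520 to 100319699, plus strand; ENSMUSG00000051048) had 43.4, 43.0 and 39.7 FPKM in siPfkfb3, against 27.2, 27.6 and 29.96 FPKM in siScrambled. The groups did not overlap, and P4ha3 stood at 149% of control on average, the highest ratio among the 10. The log2 fold change was 0.56 ± 0.05 (SE; limma, adjusted p = 3.79e-05).

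P4ha1, usually the main alpha subunit, and P4ha2 were not called. P4ha1 (chromosome 10, 59323296 to 59373304, plus strand; ENSMUSG00000019916) had 64.2, 63.7 and 65.8 FPKM in siPfkfb3, against 69.5, 63.1 and 60.8 FPKM in siScrambled. P4ha2 (chromosome 11, 54100095 to 54131665, plus strand; ENSMUSG00000018906) had 32.6, 33.9 and 32.7 FPKM in siPfkfb3, against 32.7, 32.6 and 33.6 FPKM in siScrambled. The groups overlapped for both, and the 95% intervals were −0.11 to 0.11 for P4ha1 and −0.08 to 0.09 for P4ha2 (limma, adjusted p = 0.954 and 0.948). P4hb, named here as the shared partner and not by rule, averaged 428 ± 3.26 FPKM in siPfkfb3 and 412 ± 6.90 FPKM in siScrambled (SD, n = 3 each; limma, adjusted p = 0.144).

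Promoters of the alpha subunit genes are shown because these sister genes differed in response, and because P4ha1 and P4ha2 are HIF targets. Each window runs from 250 bases before to 50 bases after the RefSeq start on GRCm38.p6, read 5′ to 3′ on the gene's strand, with every ACGTG, the core of the hypoxia response element, or its reverse complement CACGT in capitals.
P4ha3 chr7:100285270-100285569, plus strand: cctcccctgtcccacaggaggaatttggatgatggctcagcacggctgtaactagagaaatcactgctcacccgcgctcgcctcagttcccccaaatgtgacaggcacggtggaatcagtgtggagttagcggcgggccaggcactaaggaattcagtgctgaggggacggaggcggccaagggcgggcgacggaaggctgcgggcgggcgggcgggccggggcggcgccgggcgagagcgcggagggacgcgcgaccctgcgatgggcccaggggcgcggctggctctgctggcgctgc
P4ha1 chr10:59323046-59323345, plus strand: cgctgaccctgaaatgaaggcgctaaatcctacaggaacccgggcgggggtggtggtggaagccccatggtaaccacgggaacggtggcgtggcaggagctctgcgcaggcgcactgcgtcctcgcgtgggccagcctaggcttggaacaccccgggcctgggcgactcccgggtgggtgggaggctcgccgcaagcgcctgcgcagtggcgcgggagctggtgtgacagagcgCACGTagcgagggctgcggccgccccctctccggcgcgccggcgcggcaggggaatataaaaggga
P4ha2 chr11:54100674-54100973, plus strand: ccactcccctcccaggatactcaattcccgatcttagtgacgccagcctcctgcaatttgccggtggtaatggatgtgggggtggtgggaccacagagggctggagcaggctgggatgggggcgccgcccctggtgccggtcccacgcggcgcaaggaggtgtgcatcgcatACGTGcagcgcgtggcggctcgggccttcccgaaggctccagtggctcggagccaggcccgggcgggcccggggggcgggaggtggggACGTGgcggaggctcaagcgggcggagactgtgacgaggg
P4ha1 holds 1 match and P4ha2 holds 2, while these letters are not in the window of P4ha3. The windows of P4ha1 and P4ha3 span the annotated gene start. That of P4ha2, which has 15 annotated transcripts, lies wholly downstream of its gene start at 54100095. Of the 5 members with a promoter in the RefSeq table (Plod1, Plod3, P4ha1, P4ha2 and P4ha3), P4ha1, P4ha2 and Plod3 hold the motif. By gene the background is 21.8% of 27025 genes, and by promoter 19.6% of 32851 promoters of the same length. This background was not matched for base composition. The 3 members with the motif are among those that were not called. Of the called members only P4ha3 has a promoter in the RefSeq table, so presence of the motif cannot be set against the calls.

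Because FPKM is scaled to gene length, the members can be set beside each other within a library. In siPfkfb3 the order from high to low was Lox, Plod2, Loxl1, Plod3, Loxl3, P4ha1, Loxl2, P4ha3, Plod1 and P4ha2, and no neighbours in that order overlapped. In siScrambled it was Lox, Plod2, Loxl1, Plod3, Loxl2, P4ha1, Loxl3, Plod1, P4ha2 and P4ha3, where Loxl2 overlapped P4ha1 and Plod1 overlapped P4ha2. P4ha3 was thus in place 8 in siPfkfb3 and in place 10 in siScrambled, and Loxl2 in place 7 in siPfkfb3 and in place 5 in siScrambled.

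Shares within a family do not change when a whole library is scaled by a single factor. They were not computed under quantile normalization, which shifts genes by level. P4ha3 made up 31.0%, 30.6% and 28.7% of the summed alpha subunit FPKM in siPfkfb3, against 21.03%, 22.4% and 24.1% in siScrambled. Loxl2 made up 4.11%, 4.10% and 3.92% of the lysyl oxidase sum in siPfkfb3, against 7.12%, 6.45% and 6.62% in siScrambled. Neither share overlapped between groups. Plod2 held 71.1%, 70.8% and 70.3% of the lysyl hydroxylase sum in siPfkfb3, against 70.2%, 74.0% and 70.7% in siScrambled, which overlapped. The Plod1 share was apart, at 8.24%, 8.27% and 8.41% in siPfkfb3, against 8.14%, 7.24% and 8.09% in siScrambled. For single values such as these the exact two-sided permutation test of 3 against 3 samples cannot go below p = 0.1, and the P4ha3, Loxl2 and Plod1 shares each gave p = 0.1.

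The same held for ratios between members in a library. Lox was 18.04, 18.1 and 18.9 times as abundant as Loxl2 in siPfkfb3, against 9.91, 11.4 and 10.8 times in siScrambled. The ratio of P4ha1 to P4ha3 was 1.48, 1.48 and 1.66 in siPfkfb3, against 2.55, 2.29 and 2.03 in siScrambled. Both ratios were apart between groups, whereas that of Lox to Loxl1 overlapped, at 4.79 ± 0.0591 in siPfkfb3 and 4.63 ± 0.316 in siScrambled (SD, n = 3 each). Of the 12 pairs within families, 7 did not overlap between groups. The smallest exact permutation p was 0.1, or 0.171 adjusted over the 12 pairs. Every pair with Loxl2 or P4ha3, both called on their own, was among the 7, and the others were Loxl1 with Loxl3 and Plod1 with Plod3. No share over other gene pairs was computed, so the count has no background beside it.

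**Figure D3:**
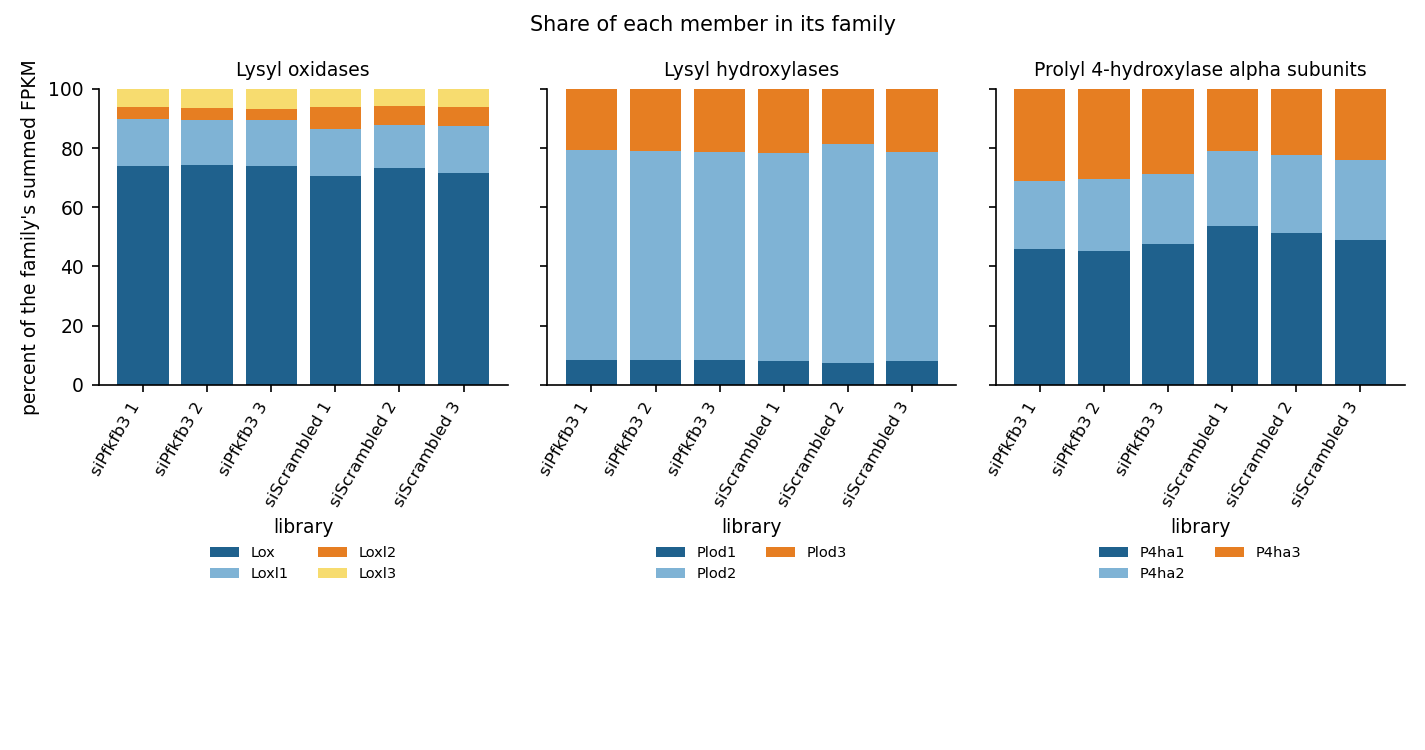
Percent of each family's summed FPKM contributed by each gene, 1 stacked bar per library, siPfkfb3 libraries left of siScrambled libraries. P4ha3 takes 28.7% to 31.0% of the alpha subunit bar in siPfkfb3 and 21.03% to 24.1% in siScrambled; Plod2 takes 70.3% to 71.1% of the lysyl hydroxylase bar in siPfkfb3 and 70.2% to 74.0% in siScrambled.

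Summed over each family, the lysyl oxidases had 1163, 1128 and 1156 FPKM in siPfkfb3, against 937, 984 and 957 FPKM in siScrambled. The alpha subunits had 140.2, 141 and 138 FPKM in siPfkfb3, against 129, 123 and 124 FPKM in siScrambled. Both sums were apart between groups (exact permutation p = 0.1 each, the smallest possible), while that of the lysyl hydroxylases overlapped, at 431 ± 2.82 FPKM in siPfkfb3 and 442 ± 13.3 FPKM in siScrambled (SD, n = 3 each). The main fibrillar collagen transcripts Col1a1, Col1a2 and Col3a1 together had 5384 ± 99.8 FPKM in siPfkfb3 and 5533 ± 66.7 FPKM in siScrambled (SD, n = 3 each), and did not overlap either (exact permutation p = 0.1). This difference in Col1a1, Col1a2 and Col3a1, summed FPKM, was −149 FPKM, against −91.5 FPKM without siPfkfb3 replicate 1 and −58.0 FPKM under TMM scaling. Set against that collagen sum, lysyl oxidase transcripts came to 22.1%, 20.7% and 21.3% in siPfkfb3 and to 16.7%, 17.9% and 17.4% in siScrambled. Lysyl hydroxylase transcripts came to 8.003% ± 0.115 in siPfkfb3 and 7.99% ± 0.303 in siScrambled (SD, n = 3 each). A higher family sum does not mean that every gene of the family rose. Among the lysyl oxidases Lox differed most in FPKM (means of 851 in siPfkfb3 and 689 in siScrambled), and Loxl2 fell. Among the alpha subunits P4ha3 averaged 42.0 FPKM in siPfkfb3 and 28.3 FPKM in siScrambled, and P4ha1 and P4ha2 were not called.

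Genes that followed the leading member of each family most closely over the 6 libraries were named by Pearson correlation of log2(FPKM + 1), as a description, since groups and library scaling are shared by all genes. For Lox they were Il1rn (the interleukin 1 receptor antagonist, r = 1.00), Nynrin (r = 0.999) and Arl5a (r = 0.998), and all 3 were higher in siPfkfb3, by 0.63, 0.28 and 0.40 on the log2 scale (limma, adjusted p = 0.000156, 0.00269 and 0.000182). For Plod2 they were Mrps22, Lyar and Sesn3 (r = 0.988, 0.978 and 0.976), and for P4ha1 Zfp763, Rel and Rnf8 (r = 0.972, 0.961 and 0.960). No gene named for Plod2 or P4ha1 was called. Genes chosen this way tend to share the group difference of their member, so their calls and p-values are not separate evidence.

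Partners of procollagen in folding, export and regulation were mixed. Of 20 tested genes 6 rose, 5 fell and 9 were not called, with a median log2 fold change of 0.04. Beside this list and those below, 15.8% of all tested genes were called higher and 20.5% lower. No list was tested as a set. P3h1, which hydroxylates prolines at another position in a complex with Crtap and Ppib, rose by 0.58 (47.1 ± 1.32 FPKM in siPfkfb3 and 31.2 ± 0.509 FPKM in siScrambled, SD, n = 3 each; limma, adjusted p = 5.55e-06). The peptidyl-prolyl isomerases Fkbp14 and Fkbp9 rose by 0.43 and 0.37, and Tmem38b, an ion channel of the endoplasmic reticulum, by 0.34. Among genes named after their values were seen, the collagen chaperone Serpinh1 fell (979 ± 15.3 FPKM in siPfkfb3 and 1083 ± 37.6 FPKM in siScrambled, SD, n = 3 each; limma, adjusted p = 0.00507), and Crtap and Ppib were not called (adjusted p = 0.609 and 0.964). Of the other 4 that fell, Sparc is a secreted collagen-binding protein, Creb3l1 a transcription factor, Tmed10 a cargo receptor and P3h4 a partner of lysyl hydroxylation.

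Genes listed under procollagen processing, not all of which cut procollagen themselves, were lower or not called. Of 8 tested, 6 fell and none rose, with a median of −0.19. Pcolce, which enhances removal of the carboxyl propeptide, had the largest change, at 334 ± 2.97 FPKM in siPfkfb3 and 432 ± 14.0 FPKM in siScrambled (SD, n = 3 each; log2 fold change −0.37, limma, adjusted p = 1.92e-05). Its relative Pcolce2 and the metalloprotease Adam9 fell by 0.25 and 0.20. Bmp1 and Adamts2, named after their values were seen, fell by 0.18 and 0.14 (limma, adjusted p = 0.00308 and 0.00789). Adamts14, an aminopropeptidase, had −0.24 (adjusted p = 0.0435), a call that ended in 9 of 14 other settings (adjusted p of 0.0318 to 0.142 over them), among them the 3 other scalings and leaving out any library but siPfkfb3 replicate 2.

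Matrix proteins that these enzymes act on, or that bind them, moved both ways, with 6 of 18 tested genes higher, 7 lower, 5 not called and a median of 0.00. Postn, periostin, rose by 0.66 and Col5a2, a chain of collagen V, by 0.59 (limma, adjusted p = 2.12e-06 and 1.05e-06). The collagen VI chains Col6a3 and Col6a1 fell by 0.49 and 0.48 (adjusted p = 1.86e-05 and 5.62e-06). Named for their part as substrates and after their values were seen, elastin (Eln) averaged 3718 ± 86.9 FPKM in siPfkfb3 and 2895 ± 107 FPKM in siScrambled (SD, n = 3 each; log2 fold change 0.36, adjusted p = 2.61e-05), and the basement membrane collagens Col4a1 and Col4a2 both fell by 0.18 (adjusted p = 0.00223 and 0.000619).

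Of 5 tested enzymes with a related activity, 3 fell and 1 rose. Besides Loxl4, Pxdn, the peroxidase that forms sulfilimine bonds in collagen IV, fell by 0.22 (limma, adjusted p = 0.00132), and the transglutaminase Tgm2 fell by 0.20 (adjusted p = 0.0225). Aoc3, a vascular amine oxidase, rose by 0.16 (adjusted p = 0.0489). The call of Tgm2 ended in 4 and that of Aoc3 in 7 of 15 other settings, with adjusted p of 0.00538 to 0.0810 and of 0.0287 to 0.161 over them. Without a filter on low values, or without siPfkfb3 replicate 2 or siScrambled replicate 3, 2 of the 4 calls remained, Loxl4 and Pxdn.

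Genes that move the cofactors were few and split: of 7 tested, 2 rose and 2 fell, with a median of −0.06. The vitamin C transporter Slc23a2 was lower, at 5.97 ± 0.0485 FPKM in siPfkfb3 and 7.70 ± 0.311 FPKM in siScrambled (SD, n = 3 each; log2 fold change −0.32, limma, adjusted p = 0.00197). The iron transporter Slc11a2 rose by 0.25 and the zinc and iron transporter Slc39a14 by 0.23, while the zinc transporter Slc39a13 had −0.12 (adjusted p = 0.0323), a call that ended in 10 of 15 other settings (adjusted p of 0.0285 to 0.0940 over them). The copper transporters Atp7a and Slc31a1, which bear on the lysyl oxidases and were named after their values were seen, were not called (adjusted p = 0.543 and 0.0535), though for Slc31a1 every siPfkfb3 library, at 17.9, 19.4 and 18.7 FPKM, was above every siScrambled library, at 16.7, 17.4 and 16.6 FPKM. Slc31a1 was called higher in 5 of 15 alternatives, the 3 other scalings included (adjusted p of 0.0294 to 0.161 over the 15).

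Transcripts induced by HIF other than the members were also split, with 2 of 15 tested genes higher, 5 lower, 8 not called and a median of −0.07. Ero1l, an oxidase of disulfide formation, and the histone demethylase Kdm3a both rose by 0.34, whereas the glycolytic enzyme Pgk1 fell by 0.34 and Ddit4, an inhibitor of growth signalling, by 0.32 (limma, adjusted p = 0.000467, 0.00131, 5.29e-05 and 0.00200). Of the other lower calls, named after their values were seen, that of Higd1a ended in 10 and that of the glucose transporter Slc2a1 in 6 of 15 other settings (adjusted p up to 0.141 and 0.116), and 5 to 7 genes of the list were called over these settings. Targets of TGF-beta, a growth factor that induces several of the members, were mostly higher: 10 of 13 rose, 2 fell and 1 was not called, with a median of 0.32. Of all tested genes, 15.8% were called higher and 20.5% lower. Whether TGF-beta bears on the members here was not tested. Cthrc1, a secreted collagen-associated protein, rose by 0.87, and Tgfbi, a matrix protein, went the other way, by −0.89 (limma, adjusted p = 1.30e-06 and 3.54e-05). Col1a1 was the other gene that fell. The calls of Skil, Col1a1 and Fn1, named after their values were seen, ended in 4, 2 and 1 of 15 other settings (limma, adjusted p up to 0.0791, 0.668 and 0.0786). Postn, Fn1 and Col1a1 stand in this list and among the matrix proteins, so the lists are not separate.

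**Figure D4:**
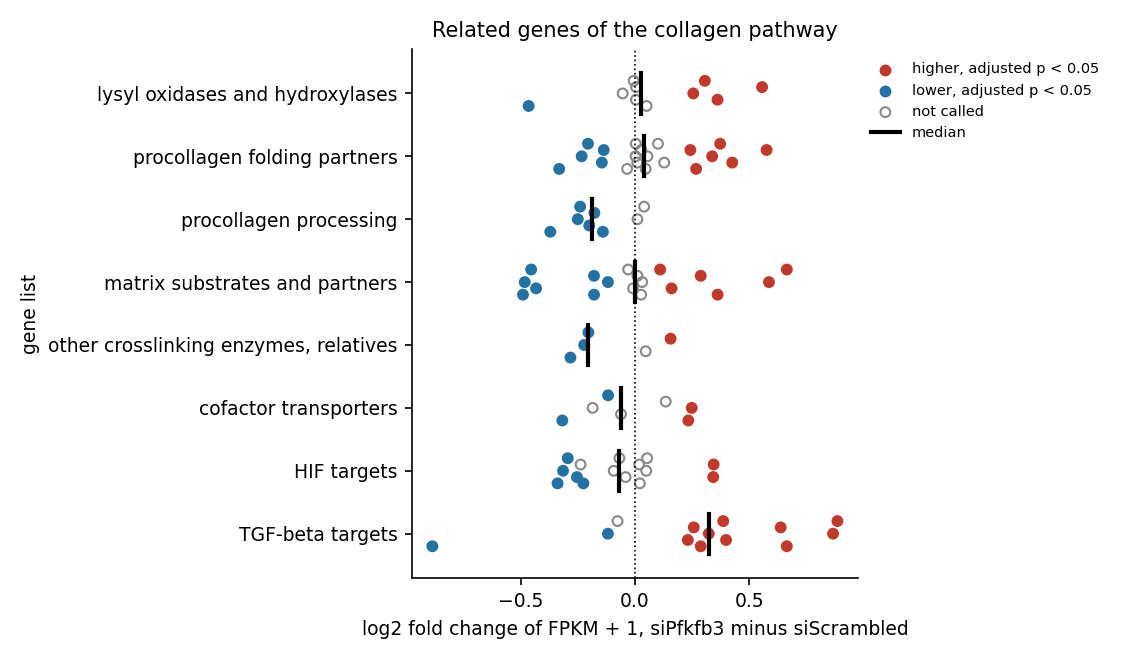
Log2 fold change of FPKM + 1, siPfkfb3 minus siScrambled, for each tested gene of 8 lists, 1 row per list (red higher, blue lower, open circles not called, black bar the median). TGF-beta targets have their median at 0.32 and procollagen processing genes at −0.19, while the lysyl oxidases and hydroxylases lie at 0.03.

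The cells carried smooth muscle markers in every library, with a summed level over 12 genes of 2877 to 2961 FPKM in siPfkfb3 and 2557 to 2662 FPKM in siScrambled; 5 of the 12 rose and 1 fell, and the median log2 fold change was −0.05. Acta2, smooth muscle actin, had 1700.0 ± 29.9 FPKM in siPfkfb3 and 1340 ± 39.0 FPKM in siScrambled (SD, n = 3 each; limma, adjusted p = 2.05e-05), while Myh11, the smooth muscle myosin, was not called (adjusted p = 0.189). Without Acta2 the other 11 genes summed to 1190.2 to 1242 FPKM in siPfkfb3 and to 1257 to 1284 FPKM in siScrambled, so the sum without it was lower in siPfkfb3. These genes were uneven in level. Tagln averaged 680 FPKM in siPfkfb3 and 717 FPKM in siScrambled, and Myh11 15.6 and 16.6 FPKM. Myocd and Des were low, at 1.20 and 0.830 FPKM on average in siPfkfb3 and at 1.51 and 1.24 FPKM in siScrambled. Adventitial fibroblast markers were present too, with a sum of 1276 to 1311 FPKM in siPfkfb3 and 1355 to 1383 FPKM in siScrambled. Of 11 tested, 7 fell, among them Cd34 by 1.05 and Dpt by 0.88 on the log2 scale. The 2 that rose, named after their values were seen, were Col14a1 by 0.36 and Pdgfra by 0.14 (limma, adjusted p = 4.84e-05 and 0.0228). Not every marker was present: Dpp4 averaged 0.00529 FPKM in siPfkfb3 and 0 FPKM in siScrambled. All 12 cell cycle genes fell, with a median of −0.74 (summed level 130.0 to 135 FPKM in siPfkfb3 and 221 to 231 FPKM in siScrambled). The part of these shifts in the members' changes was not tested.

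Of 12 endothelial genes 2 were tested and both rose, Erg and Flt1, with a sum over the list of 28.6 to 30.5 FPKM in siPfkfb3 and 21.7 to 22.9 FPKM in siScrambled, but the defining Pecam1 and Cdh5 were at 0.0415 and 0.0164 FPKM on average in siPfkfb3 and at 0.0685 and 0.0246 FPKM in siScrambled. Macrophage and leukocyte genes summed to 16.5 to 17.1 FPKM in siPfkfb3 and to 15.3 to 15.8 FPKM in siScrambled; of 12, 3 were tested and none was called, Cd3e is listed at 0 in every library, and Ptprc averaged 0 FPKM in siPfkfb3 and 0.00595 FPKM in siScrambled.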

How the data were processed

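RNA from 6 cultures was sequenced as mRNA libraries. The submitters' processing notes name HISAT2 and the builds GRCm38 and mm10; the tool for counting, with its strand setting, is not given in the sources used here. FPKM values were deposited by the authors in 1 table, so no counts, counting intervals or count tests can be given. Depth is unknown beyond a rough relative estimate, and an exact 0 can be a failed estimate.

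Group and replicate came from titles. Symbols were found for 22022 of 22036 Ensembl IDs. The 11240 genes whose mean over the samples reached 1 FPKM were fitted on log2(FPKM + 1), pseudocount 1, with limma 3.58.1 in R 4.3.3 (trend and robust, two-sided, Benjamini-Hochberg over all genes); the scale understates changes of low genes. Shares, sums and ratios used the exact permutation test. The limma step was tested on simulated data. Positions, exon overlaps and 3′ untranslated regions are from GENCODE M21 (GRCm38), promoters from RefSeq (GRCm38.p6), read with Python 3.11.15 and pandas 2.3.3; figures used matplotlib 3.10.9.

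The members, lists and heptamers were chosen with earlier results of these data known. Named are all members, Pfkfb3, up to 4 called genes with the largest change per list, and the 3 genes most correlated with the most abundant member of each family; others are marked. Some genes that these rules name are not reported here. The 15 alternatives were pseudocounts, filters, scalings, a fit without trend and robust steps, a replicate block and leaving out each library.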

Additional observations from a re-analysis of the deposited data

How the results depend on the processing

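Under all 15 alternatives the 5 called members, Lox, Loxl1, Loxl2, Loxl3 and P4ha3, stayed called in the same direction (limma, adjusted p at most 0.00530), with log2 fold changes of 0.28 to 0.34, 0.23 to 0.29, −0.49 to −0.43, 0.33 to 0.39 and 0.53 to 0.60, and no other member was called. Between 3274 and 4074 genes were called under the alternatives, against 4079; the lowest came from a filter at a mean of 5 FPKM, which tests fewer genes, and fits that leave out a library called 3320 to 3692. Pfkfb3 is below that filter and has no value there. Signs of uncalled members turned. Plod3 was at 0.016 under TPM, 0.0179 under TMM and 0.0201 under quantile scaling, and Plod2 at 0.0336 under quantile scaling. Leaving out single libraries gave −0.0453 to 0.0161 for Plod3, −0.0365 to 0.0592 for P4ha1 and −0.0129 to 0.0178 for P4ha2, and, among other uncalled genes, −0.0681 to 0.0206 for Crtap, −0.0132 to 0.0274 for Ppib and −0.1229 to 0.0056 for Atp7a. In the same fits the group difference in family share ran from −0.481 to 0.198 percentage points for Loxl1, −1.60 to 0.298 for Plod2 and −0.489 to 0.953 for Plod3, and that of the lysyl hydroxylase sum as a percent of the collagen sum from −0.135 to 0.167; the cause was not tested. In the list of other crosslinking enzymes 2 genes were called without a filter on low values, where more genes are tested, and 2 to 4 when a library was left out.

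The values gave no sign that the replicate numbers pair the samples. Deviations from the group means correlated at −0.114, 0.0598 and 0.0550 for same-numbered samples, and at −0.160 to 0.120 for differently numbered ones. Whether same-numbered samples share an isolation or batch cannot be settled from these values. With the replicate number as a block 3907 genes were called, the same 5 members among them. Without counts, the depth behind each value cannot be given, and 3 samples a group limit the precision.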
